A study of Mus musculus with 9 samples.

Results

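From the 53077 genes in the deposited tables, a set of 7 that encode carriers of lactate and pyruvate or proteins that escort them is described here in every library. They were chosen by name as the monocarboxylate transporters MCT1 (*Slc16a1*), MCT4 (*Slc16a3*) and MCT2 (*Slc16a7*), their partners basigin (*Bsg*) and embigin (*Emb*), and the mitochondrial pyruvate carrier subunits (*Mpc1* and *Mpc2*). RNA was sequenced from 5TGM1, a mouse multiple myeloma cell line, made to express Cas9. Control cells carried a gRNA to *Rosa26*, the second population a gRNA to *Slc2a1*, which encodes the glucose transporter GLUT1, and the third gRNAs to *Slc2a1*, *Slc2a3*, *Slc2a5*, *Slc2a6* and *Slc2a8*, with 3 biological replicates each. All groups therefore share lentiviral Cas9, and the deleted populations are bulk cultures of edited and unedited cells, not single clones. In the five-gene population the other 4 genes were targeted first, in a reporter-sorted and expanded line, and the *Slc2a1* gRNA was added last. The sources used here do not state that the other populations were sorted and expanded alike, so targeting and this derivation cannot be told apart. In bulk RNA of such cultures, fewer cells that express a gene and less RNA per cell cannot be told apart.

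Cells that run glycolysis at a high rate reduce part of their pyruvate to lactate and export it with a proton through MCTs in the plasma membrane. MCT1 is the widely expressed form, MCT4 is the form typical of strongly glycolytic and hypoxic cells, and MCT2 binds its substrates with the highest affinity. Basigin (CD147) brings MCT1 and MCT4 to the cell surface, and embigin is the preferred partner of MCT2. Pyruvate that is not reduced enters the mitochondrion through a carrier in the inner membrane, built of the MPC1 and MPC2 proteins, and is then oxidised by pyruvate dehydrogenase or carboxylated.

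The libraries held 21838805 to 30537105 estimated counts, and 4.84% to 11.1% of them came from mitochondrially encoded genes. For replicates 1 to 3 this share was 8.0%, 8.0% and 4.8% in control cells and 8.7%, 10.5% and 6.6% with the *Slc2a1* gRNA, higher in each same-numbered pair. With the 5 gRNAs it was 11.1%, 5.8% and 4.9%, and its part in the results was not tested. Over all genes, five-gene replicate 1 stood apart from its group (chi-square per degree of freedom 67.7 and 99.7 against replicates 2 and 3, which gave 21.4 between them), as did control replicate 3 (53.4 and 46.5, against 18.8 between the other controls). When one or the other of these libraries was left out, no carrier passed the adjusted threshold of edgeR in the 3 comparisons. The plasma cell marker list (*Sdc1*, *Prdm1*, *Xbp1*, *Irf4*, *Tnfrsf17*, *Jchain*, *Slamf7* and *Cd38*) summed to 627.3 to 956.3 TPM (a transcript level corrected for length and for the size of the library) across the 9 libraries, although *Cd38* had at most 2 counts and *Tnfrsf17* averaged under 1 TPM in each group. Within it *Jchain*, the joining chain of polymeric antibodies, averaged 56.2, 20.4 and 80.7 TPM in control, *Slc2a1* gRNA-transduced and five-gene cells. EdgeR called it lower with the *Slc2a1* gRNA (log2 fold change −1.33, adjusted p = 0.00529, held in 15 of 17 alternatives, lost without control replicate 2) and higher in the five-gene than in the *Slc2a1* gRNA population (1.92, adjusted p = 0.000221, held in 17). It was also called higher with the 5 gRNAs against control (0.59, adjusted p = 0.0348), a call that held in 9 of 17 alternatives and was lost without any control library or without five-gene replicate 1 or 2. *Sdc1* and *Xbp1* were not called in the 3 comparisons. The B cell, T cell, myeloid, erythroid and stromal lists each summed to at most 1.71 TPM. The endothelial list (*Pecam1* and *Cdh5*) summed to 3.08 to 4.97 TPM in control cells, 2.68 to 3.31 TPM in *Slc2a1* gRNA-transduced cells and 1.52 to 2.11 TPM in *Slc2a1/3/5/6/8* gRNA-transduced cells, with *Pecam1* called lower with the 5 gRNAs (edgeR log2 fold change −1.14, adjusted p = 0.00319, held in 15 of 17 alternatives). It was also called lower there than with the *Slc2a1* gRNA (−0.88, edgeR adjusted p = 0.0382), which held in 6 of 17 alternatives and was lost without control replicate 1 or 3, *Slc2a1* gRNA replicate 2 or 3, or five-gene replicate 2 or 3. That call was also lost without the replicate block, under total count scaling, when only the 2 populations were fitted and under limma. On log2(TPM + 1) limma gave −0.51 (adjusted p = 0.380). The part of *Jchain* and *Pecam1* in the results was not tested. *Slc2a1* itself stood at 59.5, 26.9 and 32.9 TPM in control cells and at 37.1, 28.3 and 31.4 TPM in *Slc2a1* gRNA-transduced cells, which overlapped (edgeR log2 fold change −0.21, SE 0.18, adjusted p = 0.544). In counts scaled to a common library level (TMM), control replicates 1 to 3 held 5062, 2428 and 2398, and the *Slc2a1* gRNA libraries 3131, 2512 and 2499. The negative sign thus rested on control replicate 1, since the other controls lay below every *Slc2a1* gRNA library on that scale. With the 5 gRNAs, edgeR called *Slc2a1* (−0.66, adjusted p = 0.0290), *Slc2a6* (−0.67, adjusted p = 0.0366) and *Slc2a8* (−1.22, adjusted p = 0.000309) lower, did not call *Slc2a3* (0.27, adjusted p = 0.259), and called *Slc2a5* higher (2.65, adjusted p = 0.00478). *Slc2a5* had 6 to 10 counts in control cells and 29 to 51 with the 5 gRNAs. By limma it read 0.69 on log2(TPM + 1) and 1.76 on log2(TPM + 0.1) (adjusted p = 0.0422 and 0.05004). Of these calls, that of *Slc2a8* held in all 17 alternatives, that of *Slc2a5* in 14 of 15 and those of *Slc2a1* and *Slc2a6* in 10 and 8. The latter calls were both lost without the replicate block. Without control replicate 1 *Slc2a1* read −0.41 (edgeR adjusted p = 0.222), and its call was also lost without control replicate 3 or five-gene replicate 1 or 3, and that of *Slc2a6* without any control or five-gene library. The study itself reported a significant fall of the *Slc2a1* transcript in deleted cultures, by a paired analysis of variance. An edit that shifts the reading frame need not remove the transcript, so these levels do not check the deletions. For that the study used GLUT1 staining, uptake of radioactive glucose and sequencing of the targeted sites.

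The promoters of a well detected and a barely detected MCT gene, *Slc16a1* and *Slc16a3*, and of the carrier subunits *Mpc1* and *Mpc2* are shown from RefSeq (GRCm38.p6, plus strand, 250 bases before to 50 bases after the annotated start). The capitals mark the letters ACGTG, the core of the hypoxia response element, on either strand, and the longer CACGTG (an E-box) that contains it.
*Slc16a1*, chr3:104638414-104638713: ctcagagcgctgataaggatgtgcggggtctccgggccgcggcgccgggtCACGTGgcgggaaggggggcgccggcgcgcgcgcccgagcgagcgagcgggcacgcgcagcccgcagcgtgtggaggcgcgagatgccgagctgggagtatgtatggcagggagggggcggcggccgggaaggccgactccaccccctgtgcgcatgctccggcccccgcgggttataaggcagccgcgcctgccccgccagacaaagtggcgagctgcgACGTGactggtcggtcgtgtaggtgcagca
*Slc16a3*, chr11:120948817-120949116: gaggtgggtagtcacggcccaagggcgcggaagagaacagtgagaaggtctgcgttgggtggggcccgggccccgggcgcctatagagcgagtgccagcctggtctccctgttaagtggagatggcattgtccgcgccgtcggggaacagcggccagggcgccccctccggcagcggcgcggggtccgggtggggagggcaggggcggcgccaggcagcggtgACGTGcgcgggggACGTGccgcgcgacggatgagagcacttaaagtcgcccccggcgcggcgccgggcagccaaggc
*Mpc1*, chr17:8283537-8283836: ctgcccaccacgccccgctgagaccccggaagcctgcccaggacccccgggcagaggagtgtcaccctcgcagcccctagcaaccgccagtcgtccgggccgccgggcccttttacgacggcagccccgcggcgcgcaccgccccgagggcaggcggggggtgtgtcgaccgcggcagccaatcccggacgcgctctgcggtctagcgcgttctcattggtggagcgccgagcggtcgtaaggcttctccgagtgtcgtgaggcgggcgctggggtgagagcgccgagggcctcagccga
*Mpc2*, chr1:165461010-165461309: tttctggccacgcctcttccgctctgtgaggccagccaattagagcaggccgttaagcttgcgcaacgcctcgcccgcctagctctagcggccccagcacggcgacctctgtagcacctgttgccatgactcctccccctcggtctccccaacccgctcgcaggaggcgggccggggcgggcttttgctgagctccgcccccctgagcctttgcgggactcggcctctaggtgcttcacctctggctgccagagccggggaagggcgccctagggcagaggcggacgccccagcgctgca
The *Slc16a1* window held a CACGTG at −200 and an ACGTG at 20, counted in bases from the start. CACGTG reads the same on both strands, so it counts as matches to ACGTG at −200 and −199. The *Slc16a3* window held ACGTG at −27 and −14. Neither *Mpc* window shown held ACGTG, while *Mpc1* held CCAAT at −72 and −35 and *Mpc2* held CCAAT at −215. Searched in the same way, 19.6% of all 32851 RefSeq promoters held ACGTG, 7.15% held CACGTG and 37.4% held CCAAT. The windows were rich in CpG, with 42 in *Slc16a1*, 36 in *Slc16a3*, 39 in *Mpc1* and 24 in *Mpc2*, against a median of 7 over all promoters. These matches are a description of letters and not of binding. RefSeq entries matched 5 of the 7 genes, *Emb* being the fifth, and *Mpc1* had a second start whose window, chr17:8284204-8284503, held no ACGTG.

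Per length, basigin was by far the most abundant of the 7 transcripts, followed by the mitochondrial carrier subunits, MCT1 and, near the detection limit, MCT4 and embigin. In control cells *Bsg* averaged 561.9 ± 19.6 TPM (SD, n = 3) and exceeded 99.7% of all genes in the tables. *Mpc2* averaged 63.2 ± 5.29 TPM, *Mpc1* 41.1 ± 4.77 TPM and *Slc16a1* 15.1 ± 2.2 TPM. *Slc16a3* averaged 0.828 ± 0.782 TPM and *Emb* 0.0216 ± 0.0374 TPM, and *Slc16a7* had no count. The ranges of neighbours in this order did not overlap among the control libraries, except that *Emb* was also at 0 in 2 of them. Across populations *Mpc1* reached 51.3 TPM and *Mpc2* went down to 48.1 TPM, but *Mpc2* exceeded *Mpc1* within each of the 9 libraries.

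**Figure D1:**
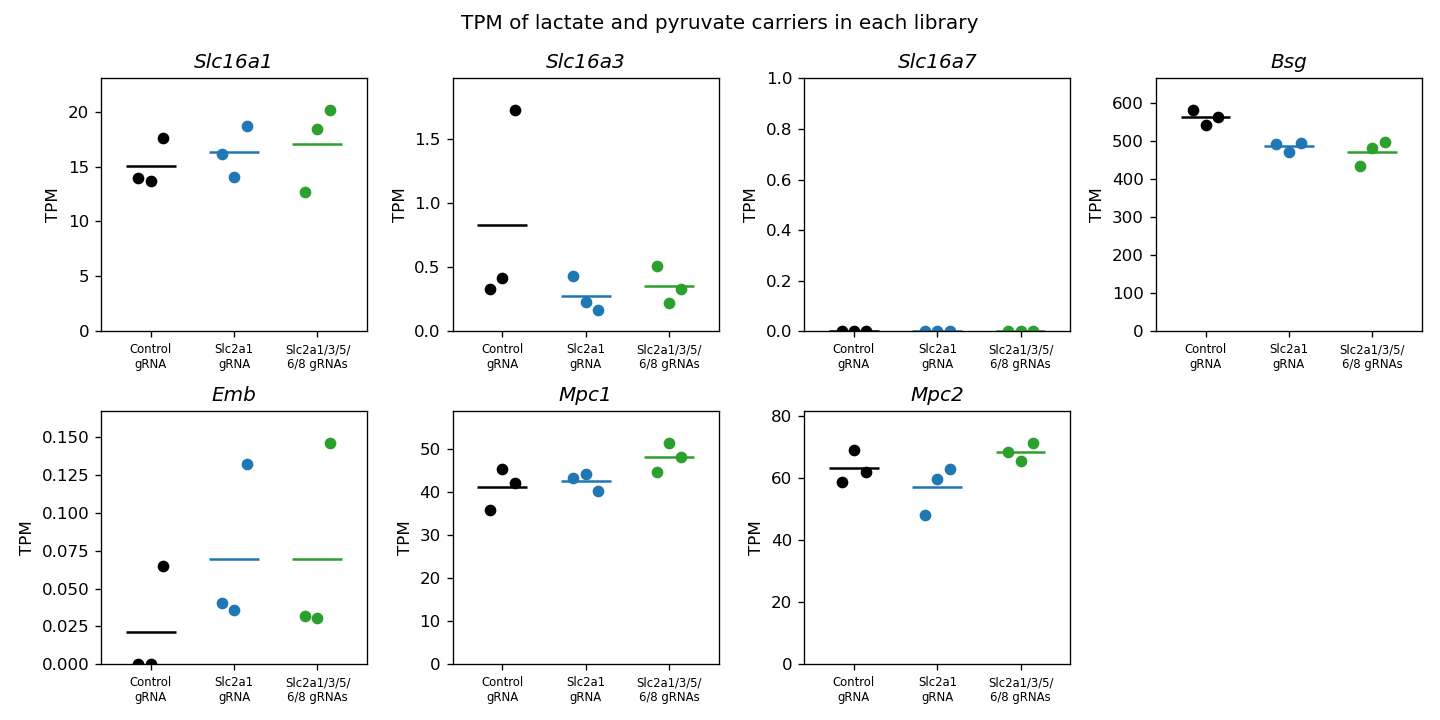
TPM of the 7 genes in each library. Points are libraries in the order of replicates 1 to 3, horizontal lines are group means, and each panel has its own linear axis from 0; *Bsg* lies between 434.3 and 581.5 TPM in all libraries, whereas *Slc16a7* is at 0.

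*Slc16a1*, which encodes MCT1, lies at chr3:104638668-104658462 on the plus strand (GRCm38, GENCODE M21) and has 1 annotated transcript of 4426 bases, the length deposited in all 9 libraries. Control replicates 1, 2 and 3 had 14.0, 13.7 and 17.6 TPM from 1965, 1936 and 2443 counts. The *Slc2a1* gRNA-transduced replicates had 16.2, 14.0 and 18.7 TPM, and the *Slc2a1/3/5/6/8* gRNA-transduced replicates had 12.7, 18.4 and 20.1 TPM. On this scale all 3 groups overlapped, and the lowest of the 9 libraries was a five-gene library. When the counts were instead scaled by TMM, which sets libraries to a common level by the bulk of their genes, the controls held 1751, 1800 and 1907 counts. The *Slc2a1* gRNA libraries then held 2195, 2046 and 2322 counts and the five-gene libraries 1975, 2131 and 2226 counts, all above the highest control. Such separation above control was seen in 13.2% of tested genes for the *Slc2a1* gRNA and in 17% for the 5 gRNAs. *Slc16a1* was 1.20-fold of control with the *Slc2a1* gRNA (95% interval 1.03 to 1.40, log2 fold change 0.27, SE 0.0997). It missed the threshold in edgeR's quasi-likelihood test (adjusted p = 0.142). It passed that threshold when only these 2 populations were fitted (edgeR adjusted p = 0.0451), a fit that called 16.7% of 13590 genes, while its adjusted p in the other alternatives reached 0.801. Its log2 fold change was 0.17 under total count scaling and 0.10 by limma on log2(TPM + 1). With the 5 gRNAs it was 1.16-fold of control (95% interval 0.999 to 1.35), again short of the threshold (edgeR adjusted p = 0.163). Between the deleted populations the fold was 0.965 (95% interval 0.831 to 1.12, edgeR adjusted p = 0.826).

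*Slc16a3*, which encodes MCT4, lies at chr11:120948480-120960868 on the plus strand and was barely detected. Control replicates had 46, 22 and 41 estimated counts, *Slc2a1* gRNA replicates 23, 19 and 19, and five-gene replicates 22, 22 and 30. Control replicate 2 lay within the range of the deleted populations, so the groups overlapped, and the edgeR folds had wide intervals. The fold was 0.764 with the *Slc2a1* gRNA (95% interval 0.398 to 1.47, adjusted p = 0.650) and 0.843 with the 5 gRNAs (0.442 to 1.61, adjusted p = 0.736). It was 1.10 between the deleted populations (0.570 to 2.14, adjusted p = 0.893). The log2 fold changes with control, −0.39 and −0.25, became −1.05 and −0.76 by limma on log2(TPM + 0.1) (adjusted p = 0.334 and 0.443). With libraries left out the first ran from −0.61 without control replicate 2 to −0.21 without control replicate 1, and the second from −0.47 without control replicate 2 to −0.0433 without five-gene replicate 1. Between the deleted populations it ran from 0.00452 without *Slc2a1* gRNA replicate 3 to 0.34 without five-gene replicate 1. In TPM the controls read 0.334, 0.421 and 1.73, the *Slc2a1* gRNA replicates 0.432, 0.233 and 0.164, and the five-gene replicates 0.510, 0.220 and 0.334. The highest library thus exceeded the lowest 10.5-fold in TPM but 2.42-fold in counts. The deposited transcript length, weighted by the estimated abundance of each isoform, accompanied this difference. It was 4335 bases in control replicate 1, 1792 in control replicate 2 and 999.6 in control replicate 3, the library with the highest TPM. GENCODE lists 8 transcripts of 353 to 4335 bases, and a length of 4335 bases, that of the longest coding transcript, stood in 3 libraries, 1 of each population. With 19 to 46 counts to divide among 8 transcripts, isoform use was not tested.

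**Figure D2:**
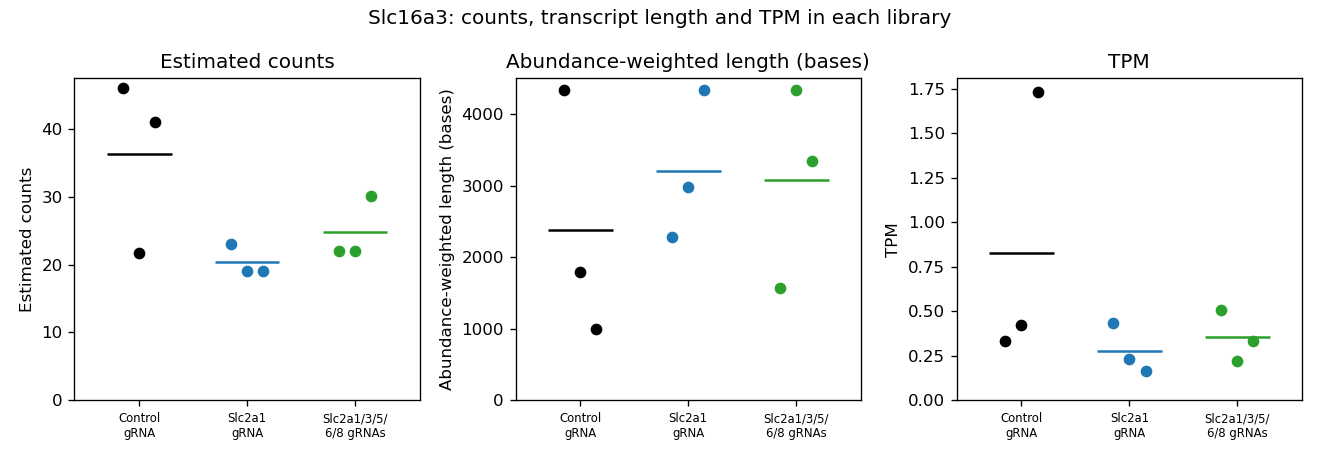
*Slc16a3* in each library as estimated counts, abundance-weighted transcript length in bases and TPM, with points for replicates 1 to 3 and lines for group means on linear axes from 0. Control replicate 3 has 41 counts, close to the 46 of control replicate 1, but the shortest length and the highest TPM (1.73).

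*Slc16a7*, which encodes MCT2, lies at chr10:125219270-125389465 on the minus strand and had 0 counts in all 9 libraries. The limit that a count of 0 allows, 3 counts, corresponds to 0.030 to 0.0416 TPM depending on the library. This limit covers counting error alone. MCT1 thus made up 91.1% to 99.1% of the summed TPM of MCT1, MCT2 and MCT4, with the lowest share in control replicate 3.

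*Bsg*, the gene of the chaperone basigin, lies at chr10:79704491-79711969 on the plus strand. Its deposited length of 1260.5 to 1260.9 bases is close to that of *Bsg-205*, a transcript of 1261 bases in 7 exons, in every library. Control replicates had 581, 542 and 562 TPM, *Slc2a1* gRNA replicates 491, 472 and 495 TPM, and five-gene replicates 434, 482 and 497 TPM. In TPM every deleted library therefore lay below every control library, a separation that 17.8% of tested genes showed with the *Slc2a1* gRNA and 16.7% with the 5 gRNAs. The median gene also stood lower on the log2(TPM + 1) scale, by −0.111 and −0.0516, beside −0.21 and −0.26 for *Bsg* (limma, adjusted p = 0.333 and 0.197). After TMM scaling the controls held 17033, 16720 and 14145 counts, the *Slc2a1* gRNA libraries 15522, 16150 and 14342, and the five-gene libraries 15829, 12972 and 13084. The groups overlapped on that scale, since control replicate 3 was lower than all *Slc2a1* gRNA libraries. By edgeR *Bsg* was 0.963-fold of control with the *Slc2a1* gRNA (95% interval 0.812 to 1.14, adjusted p = 0.829) and 0.875-fold with the 5 gRNAs (0.738 to 1.04, adjusted p = 0.269). The fold between the deleted populations was 0.908 (0.766 to 1.08, edgeR adjusted p = 0.551). On the log2 scale the values for the 5 gRNAs, −0.19 against control and −0.14 against the *Slc2a1* gRNA, became −0.10 and −0.0468 without five-gene replicate 2 and −0.26 and −0.21 without five-gene replicate 1 (edgeR adjusted p from 0.146 to 0.884). Limma on log2(TPM + 1) gave −0.0483 for the latter comparison.

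*Emb*, the gene of embigin, lies at chr13:117208536-117274415 on the plus strand and was at or near the detection limit. It had 0, 0 and 4 counts in control cells, 2, 2 and 7 in *Slc2a1* gRNA-transduced cells and 2, 2 and 8 in the five-gene population, or 27 in all. Each group's highest library was replicate 3, and the groups overlapped. In 6 of the 7 libraries with counts the deposited length was 2136 bases, that of *Emb-202*, a single-exon transcript annotated as a retained intron, and in five-gene replicate 2 it was 2923 bases, that of the coding *Emb-201*. *Emb* and *Slc16a7* did not pass the filter on low counts and were not tested. The antisense gene *Gm17509* overlaps 9.93% of the exonic bases of *Emb* and had at most 2 counts.

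*Mpc1* lies at chr17:8282904-8297661 and *Mpc2* at chr1:165460637-165481214, both on the plus strand. *Mpc1* had 35.9, 45.3 and 42.2 TPM in control replicates, 43.3, 44.3 and 40.3 TPM with the *Slc2a1* gRNA, and 44.7, 51.3 and 48.2 TPM with the 5 gRNAs. Control replicate 1 was the lowest of the 9 libraries, and the five-gene libraries overlapped with control at 44.7 to 45.3 TPM. With the *Slc2a1* gRNA, *Mpc1* was higher in 3 of 3 pairs in TMM-scaled counts, but in TPM it was lower in the pairs of replicates 2 and 3. The edgeR fold of *Mpc1* was 1.15 with the *Slc2a1* gRNA (95% interval 0.953 to 1.39, adjusted p = 0.371) and 1.22 with the 5 gRNAs (1.01 to 1.475, adjusted p = 0.134). On the log2 scale the former was 0.20, and it read 0.0878 without control replicate 1, 0.30 without control replicate 2 and 0.11 under total count scaling (edgeR adjusted p = 0.849, 0.337 and 0.627), and 0.0559 by limma on log2(TPM + 1). Without five-gene replicate 2 the value with the 5 gRNAs passed the threshold (log2 fold change 0.43, edgeR adjusted p = 0.0458), in a fit that called 12.9% of 14528 genes. It read 0.16 without five-gene replicate 1 (edgeR adjusted p = 0.418) and 0.17 without control replicate 1 (adjusted p = 0.555). *Mpc2* had 58.7, 69.0 and 61.9 TPM in control replicates, 48.1, 59.8 and 63.0 TPM with the *Slc2a1* gRNA, and 68.2, 65.5 and 71.3 TPM with the 5 gRNAs. *Slc2a1* gRNA replicate 1 was the lowest of the 9 libraries for *Mpc2*, and the five-gene libraries overlapped with control. The edgeR fold of *Mpc2* was 0.995 with the *Slc2a1* gRNA (0.806 to 1.23, adjusted p = 0.987) and 1.14 with the 5 gRNAs (0.927 to 1.41, adjusted p = 0.370). On the log2 scale the latter was 0.19, and it read 0.00541 without five-gene replicate 1 and 0.36 without five-gene replicate 2 (edgeR adjusted p = 0.984 and 0.0944), and 0.11 by limma on log2(TPM + 1). The value with the *Slc2a1* gRNA, −0.00693, read 0.14 without *Slc2a1* gRNA replicate 1 and −0.10 under total count scaling (edgeR adjusted p = 0.661 and 0.700). Limma on log2(TPM + 1) gave −0.15 for it. Between the deleted populations, both subunits were higher in every five-gene library than in every *Slc2a1* gRNA library in TPM, as were 6.61% of tested genes, but both overlapped in TMM-scaled counts. The edgeR folds there were 1.06 for *Mpc1* (0.881 to 1.28, adjusted p = 0.754) and 1.15 for *Mpc2* (0.931 to 1.42, adjusted p = 0.470). On the log2 scale *Mpc2* was 0.20 there, and it read 0.0205 without five-gene replicate 1, 0.0464 without *Slc2a1* gRNA replicate 1 and 0.37 without five-gene replicate 2 (edgeR adjusted p = 0.951, 0.893 and 0.210). *Mpc1*, at 0.0875, read 0.23 without five-gene replicate 2, −0.0448 without five-gene replicate 1 and 0.17 by limma on log2(TPM + 1). The antisense gene *4930506C21Rik* overlaps 23.1% of the exonic bases of *Mpc1* and had 0 to 9 counts per library, against 743 to 1025 for *Mpc1*. The pseudogene *Mpc1-ps* had counts in five-gene replicate 3 alone (5.6).

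**Figure D3:**
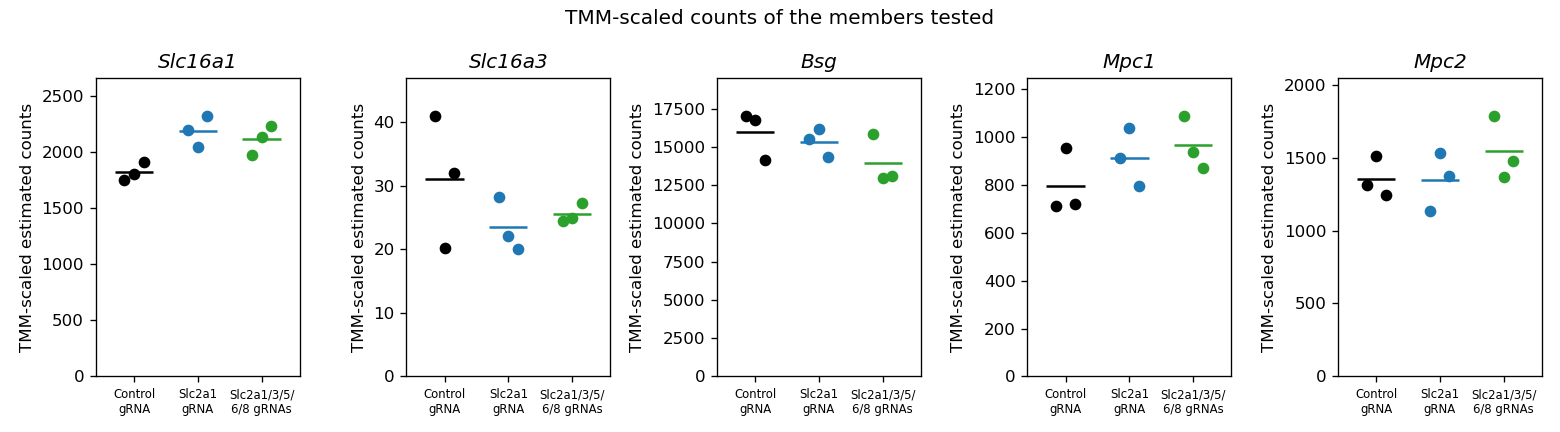
TMM-scaled estimated counts of the 5 genes tested, in each library (points, replicates 1 to 3) with group means (lines), on linear axes from 0. For *Slc16a1* the 6 deleted libraries lie between 1975 and 2322 counts, above the controls at 1751 to 1907, and the other 4 genes overlap between groups.

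Of the 5 genes that passed the filter, edgeR called 0 at an adjusted p under 0.05 with the *Slc2a1* gRNA, beside 4.64% of the 13834 genes tested. It called 0 of 5 with the 5 gRNAs, beside 15.9%, and 0 of 5 between the deleted populations, beside 2.31%. At an unadjusted p under 0.05 the edgeR counts were 1 (*Slc16a1*), 1 (*Mpc1*) and 0, beside 22%, 31.4% and 19.1% of genes tested. DESeq2 also called 0 in each comparison, beside 4.39%, 9.46% and 2.72% of 26457 genes, and at the unadjusted threshold it called 1, 1 and 0, beside 11.8%, 16.6% and 10.3%. Those 26457 are all genes with a count, including ones left without an adjusted p. The DESeq2 shares therefore cannot be set against those of edgeR over 13834 genes. Limma on log2(TPM + 1) called 0 in each, beside 0%, 3.13% and 0.224% of 13834 genes, and unadjusted it called 0, 1 (*Bsg*) and 0, beside 17.1%, 20.7% and 11.3%. The comparisons with control share the control libraries. In the main edgeR fit, the intervals with control for *Slc16a1*, *Bsg*, *Mpc1* and *Mpc2* stayed between 0.738-fold and 1.475-fold. They are not adjusted for the number of genes and refer to averages over edited and unedited cells. Other fits moved the estimates, and *Mpc1* with the 5 gRNAs, at 0.29 on the log2 scale, ran from 0.16 to 0.43. For *Slc16a3* the intervals with control ran from 0.398-fold to 1.61-fold.

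**Figure D4:**
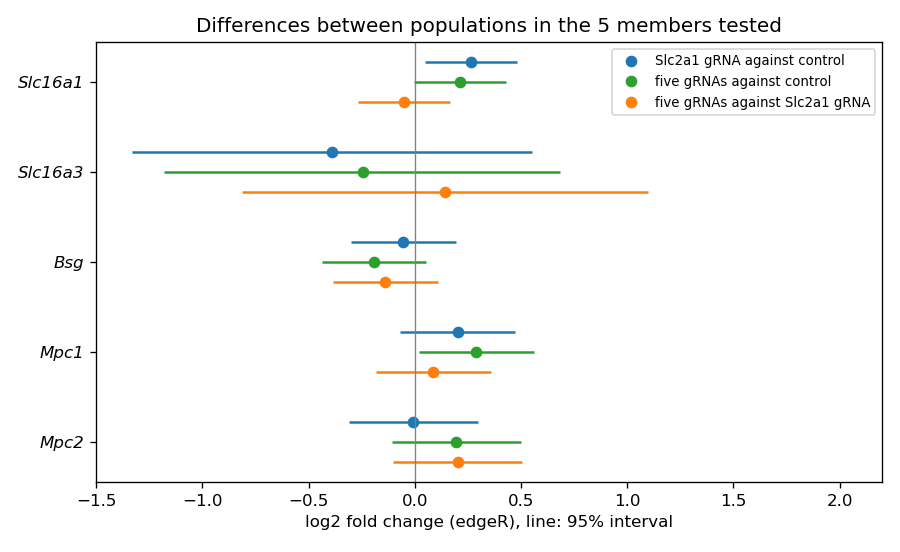
Log2 fold changes (points) and 95% intervals (lines) of the 5 genes tested in the 3 comparisons, from edgeR. *Slc16a1* with the *Slc2a1* gRNA (0.27) and *Mpc1* with the 5 gRNAs (0.29) have intervals above 0 before adjustment, and none of the 15 values passed the adjusted threshold.

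The balance between carriers and partners was described by ratios of TPM within each library. The ratio of *Mpc1* to *Mpc2* was 0.611, 0.656 and 0.682 in control cells, 0.900, 0.740 and 0.640 with the *Slc2a1* gRNA and 0.655, 0.784 and 0.676 with the 5 gRNAs. The groups overlapped, with the highest ratio in *Slc2a1* gRNA replicate 1, where *Mpc2* was lowest. *Bsg* exceeded the sum of its MCT clients 40.7-, 38.5- and 29.1-fold in control replicates, and by means of 29.7-fold (SD 3.45, n = 3) and 27.7-fold (SD 4.61, n = 3) in the *Slc2a1* gRNA and five-gene populations. *Slc16a3* was 0.0240, 0.0308 and 0.0982 of *Slc16a1* in control replicates and 0.00880 to 0.0402 in the deleted libraries. Over 9 two-sided exact permutation tests of these 3 ratios, p lay between 0.2 and 0.7 (0.54 to 0.7 after Benjamini-Hochberg adjustment), where 3 against 3 samples cannot give a p below 0.1. The ratio of *Emb* to *Bsg* was at most 0.000294 and was not tested, because *Emb* was at 0 in 2 control libraries.

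The other *Slc16* genes were examined as a list. Several of their products carry other substrates, such as amino acids, thyroid hormone or creatine, but MCT3 (*Slc16a8*) is also a lactate carrier, and transport of pyruvate or lactate has been reported for the products of *Slc16a11* and *Slc16a13*. *Slc16a8* and *Slc16a11* averaged 0.255 and 0.658 TPM in control cells. Of 14 *Slc16* genes in all, 4 had a mean of at least 1 TPM in control cells. *Slc16a1* (15.1 ± 2.2 TPM) and *Slc16a6* (14.7 ± 3.15 TPM) did not differ beyond their spread, followed by *Slc16a13* at 6.77 TPM and *Slc16a5* at 2.12 TPM. *Slc16a1* made up 32.8% to 40.4% of the summed *Slc16* TPM in the 9 libraries. Of the 11 *Slc16* genes other than MCT1, MCT2 and MCT4, 7 passed the filter and edgeR called 0 in any comparison. Over all genes tested it called 4.64% with the *Slc2a1* gRNA, 15.9% with the 5 gRNAs and 2.31% between the deleted populations. The lowest adjusted p in the comparison of the 5 gRNAs with control belonged to *Slc16a5* (log2 fold change 0.81, adjusted p = 0.0566). The median log2 fold change of the 7 was 0.51 with the *Slc2a1* gRNA and 0.21 with the 5 gRNAs, beside −0.00135 and 0.00717 over all genes tested, and −0.07 between the deleted populations. With the *Slc2a1* gRNA the more abundant *Slc16a6* and *Slc16a13* read 0.18 and 0.08, and 4 of the 7 averaged under 1 TPM in control cells. Among the other carriers and partners, neuroplastin (*Nptn*), a relative of basigin that also escorts MCTs, stood at 50.2 TPM in control cells and was not called (edgeR adjusted p = 0.786 and 0.979). The sodium-coupled carriers *Slc5a8* and *Slc5a12* averaged 0.0897 and 0.136 TPM there. The lactate receptor *Hcar1* and *Mpc1l* were not analysed here.

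Some enzymes on either side of these carriers passed the test. Of 13 enzymes that make or use lactate and pyruvate, 8 were tested, and with the *Slc2a1* gRNA 2 rose and 0 fell, while with the 5 gRNAs 3 rose and 0 fell. Over all genes tested 2.25% and 8.49% were called higher in these comparisons. All lists here were chosen with earlier results of these data known, so such counts are a description. *Ldha*, which encodes the subunit of lactate dehydrogenase typical of glycolytic cells, averaged 594 ± 204 TPM in control cells, 1157 ± 128 TPM with the *Slc2a1* gRNA and 861 ± 71.1 TPM with the 5 gRNAs. Its edgeR log2 fold changes were 1.15 (SE 0.16, adjusted p = 0.00620) and 0.63 (SE 0.16, adjusted p = 0.0190). It kept this direction in all 17 alternatives of each comparison and passed the threshold in 14 and 11 of them, with adjusted p up to 0.0624 and 0.15. The second call was lost without the replicate block (0.57, edgeR adjusted p = 0.101), in a comparison where same-numbered libraries correlated at −0.065 to 0.162. Limma on log2(TPM + 1) lost both calls (adjusted p = 0.0624 and 0.117), and with a pseudocount of 0.1 the second (0.107). The calls were also lost without control replicate 2 in both comparisons, without *Slc2a1* gRNA replicate 2 in the first, and without control replicate 3 or five-gene replicate 3 in the second. *Ldhb*, the subunit typical of heart, averaged 0.287 TPM in control cells with at most 4 counts in any library and was not tested. *Pkm*, pyruvate kinase, rose with the *Slc2a1* gRNA (0.74, edgeR adjusted p = 0.0209) and had a value of 0.33 with the 5 gRNAs (adjusted p = 0.157). *Gpt2*, which interconverts pyruvate and alanine in mitochondria, rose with the 5 gRNAs (0.53, edgeR adjusted p = 0.0112), as did *Pcx*, pyruvate carboxylase (0.49, adjusted p = 0.0159). Over 17 alternatives the calls held in 11 for *Pkm* (adjusted p up to 0.167), 12 for *Gpt2* (up to 0.185) and 12 for *Pcx* (up to 0.306), always with the same sign. All 3 were lost without control replicate 3 and under limma. Of the other control libraries, *Gpt2* also lost its call without replicate 1, and *Pkm* and *Pcx* without replicate 2. Of the deleted libraries, *Pkm* lost its call without *Slc2a1* gRNA replicate 1 or 2, and *Gpt2* and *Pcx* without five-gene replicate 3. No enzyme of this list was called between the deleted populations, and the median over the 8 tested was 0.39, 0.41 and −0.16 in the 3 comparisons. Of these genes, *Me1*, *Me2* and *Gpt* were also at 1 TPM or more in control cells, with edgeR adjusted p from 0.111 to 0.89 in the comparisons with control.

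The pyruvate dehydrogenase list held 13 genes, of which 11 were tested. None was called with the *Slc2a1* gRNA, and with the 5 gRNAs *Dld*, the dihydrolipoamide dehydrogenase subunit (0.55, edgeR adjusted p = 0.00774), and *Pdp1*, a phosphatase that activates the complex (0.56, adjusted p = 0.0495), rose and 0 fell, or 2 of 11 beside the 8.49% of genes called higher. *Dld* passed in 13 of 17 alternatives (adjusted p up to 0.151, lost without control replicate 1 or 3 and under limma), whereas *Pdp1* passed in 1 of 17 (adjusted p 0.0424 to 0.3). *Pdk1*, a kinase that inhibits the complex, had values of 0.38 and 0.40 in the comparisons with control (edgeR adjusted p = 0.117 and 0.0571). *Pdk2* had values of −0.68 and −0.33 (adjusted p = 0.0747 and 0.285), *Pdk3* of −0.07 and −0.00204, and *Pdk4* and *Pdha2* were at 0 in every library. The median over the 11 was −0.04 with the *Slc2a1* gRNA and 0.10 with the 5 gRNAs. The catalytic core subunits *Pdha1*, *Pdhb* and *Dlat* averaged 50.4, 71.0 and 23.3 TPM in control cells and were not called. *Pdhx*, *Pdpr* and *Pdp2* averaged 11.2, 6.16 and 1.43 TPM and were not called either.

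**Figure D5:**
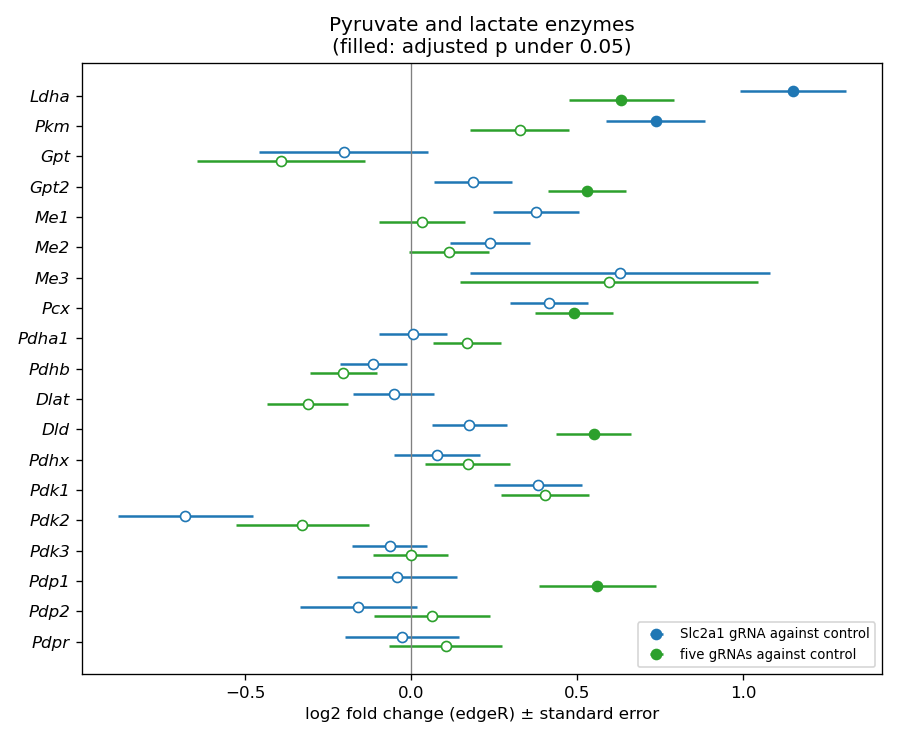
Log2 fold changes from edgeR (points) with standard errors (bars) for the 19 tested enzymes of lactate, pyruvate and pyruvate dehydrogenase, against control. Filled points have an adjusted p under 0.05, and *Ldha* is filled in both comparisons (1.15 and 0.63).

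Basigin also has partners outside the MCTs, and all 6 genes of that list were tested. *Ppia*, cyclophilin A, an extracellular ligand of basigin, rose with the *Slc2a1* gRNA (0.50, edgeR adjusted p = 0.0428). *Slc3a2*, the CD98 heavy chain of amino acid carriers, rose with the 5 gRNAs (0.37, edgeR adjusted p = 0.0423) and was higher there than with the *Slc2a1* gRNA (0.63, adjusted p = 0.0147), where 1.36% of genes tested were called higher. Over 17 alternatives the call held in 8 for *Ppia* (adjusted p up to 0.26) and was lost when any control or *Slc2a1* gRNA library was left out. For *Slc3a2* it held in 5 against control (adjusted p up to 0.268), lost without any control or five-gene library and without *Slc2a1* gRNA replicate 2 or 3, and in 12 between the deleted populations (up to 0.116), lost without *Slc2a1* gRNA replicate 2 or 3. *Slc7a5*, the LAT1 light chain that pairs with it, had values of −0.00939 and 0.28 against control (edgeR adjusted p = 0.978 and 0.144). *Ppib*, *Cd44* and *Xkr8* were not called in the 3 comparisons, and 0 genes of this list fell.

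The genes whose TMM-scaled log2 levels were most like each carrier over the 9 libraries were found among 8668 tested genes with a mean of at least 5 TPM in a group. They were *Ssrp1* (Pearson r = 0.954), *Alg11* (0.942) and *Antxr1* (0.939) for *Slc16a1*, and *Anapc4* (0.918), *Riok3* (0.871) and *Yipf3* (0.859) for *Slc16a3*. For *Bsg* they were *Septin1* (0.986), *Smdt1* (0.983) and *Ssna1* (0.982). *Tspan3* (0.932), *Smim20* (0.929) and *Dnajc24* (0.923) were most like *Mpc1*, and *Dhodh* (0.956), *Coa6* (0.953) and *Cenpv* (0.942) most like *Mpc2*. Among pairs of tested carriers and partners, r ran from −0.657 for *Slc16a1* with *Bsg* to 0.65 for *Mpc1* with *Mpc2*. The pair of *Slc16a3* and *Mpc1* gave −0.62, and these extremes were not tested. The like genes were picked as the highest of all candidates, over libraries that share their scaling factors, and are given as a description.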

How the data were processed

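RNA of 5TGM1-Cas9 cells with a control gRNA, the *Slc2a1* gRNA or all 5 gRNAs (3 replicates each, grouped by their labels) was converted to cDNA with oligo-dT primers and sequenced in pairs. The authors mapped reads with Salmon (1.5.1 in the submitters' processing notes) and deposited, per gene and sample, estimated counts, TPM and abundance-weighted lengths. The annotation and build are not given in the sources used here. Of 53077 gene names, 49351 occur in GENCODE M21 (GRCm38), used for coordinates. Sequences came from RefSeq tables.

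The quasi-likelihood test of edgeR 4.0.16 (R 4.3.3) was run on these estimated counts after rounding, with TMM factors, the default low-count filter and Benjamini-Hochberg adjustment over 13834 genes (threshold 0.05). The replicate number was a block, because the study states a paired test, and all 9 samples shared the fit. P-values measure the spread between these cultures and do not cover the derivation of the five-gene line. TMM-scaled counts were counts divided by the TMM-corrected library size times the mean of those sizes. Intervals and limits cover 95% and 3 counts. Replicates differed by more than sampling noise (chi-square per degree of freedom 18.8 to 99.7). Alternatives were DESeq2 1.42.0, no block, total count scaling, fitting 2 populations at a time, low-count filters of 10 counts in each library or none, limma 3.58.1 on log2(TPM + 1) and log2(TPM + 0.1), and leaving out each library. These were also run for the list and targeted genes called, a choice made after the calls were seen.

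Members and lists were chosen with earlier results of these data known. Named genes are the 7 members and the 5 targeted genes. From each list they are the genes called, at most 4 per comparison, and those at 1 TPM or more in control cells. For each member they are also the 3 tested genes of highest Pearson r with a mean of at least 5 TPM in a group. *Ldhb*, *Pdk4*, *Pdha2*, *Slc5a8*, *Slc5a12*, *Slc16a8*, *Slc16a11*, *Tnfrsf17*, *Cd38*, *Cdh5* and the overlapping or similar genes *Gm17509*, *4930506C21Rik* and *Mpc1-ps* were named outside this rule after their values were seen. *Hcar1* and *Mpc1l* were also named outside it and had no values here.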

Additional observations from a re-analysis of the deposited data

How the results depend on the processing

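Counts of carriers called kept to 0 of those tested under DESeq2, no replicate block, total count scaling, other filters and limma in each comparison, with 2 exceptions among the alternatives run. With the *Slc2a1* gRNA, 1 was called when only the 2 groups compared were fitted (*Slc16a1*, beside 16.7% of genes). With the 5 gRNAs, leaving out each library gave 0 to 1 (*Mpc1*, without five-gene replicate 2, beside 12.9%). The fits without the replicate block called 0, 0 and 0 carriers, and lost the calls of *Ldha*, *Pdp1*, *Slc2a1* and *Slc2a6* with the 5 gRNAs and of *Pecam1* between the deleted populations. Same-numbered libraries correlated at 0.111 to 0.215 for the *Slc2a1* gRNA and control and at −0.065 to 0.162 for the 5 gRNAs and control. For the deleted populations they correlated at −0.107 to −0.0341. Libraries of different numbers reached 0.0378, 0.147 and 0.194 in these comparisons. Such correlations therefore cannot settle whether the cultures were paired.

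Values that changed sign were all short of the threshold, and the cause was not tested. For *Mpc2* with the *Slc2a1* gRNA the log2 fold change ran from −0.11 to 0.14 when libraries were left out, with 0.07 without control replicate 2 and 0.14 without *Slc2a1* gRNA replicate 1. Without the latter, *Bsg* read 0.00643 in that comparison (range −0.10 to 0.00643). Between the deleted populations *Slc16a1* read 0.0498 and 0.0515 by limma with pseudocounts of 1 and 0.1, and *Mpc1* read −0.0448 to 0.23 when libraries were left out, lowest without five-gene replicate 1. The log2 ratio of *Mpc1* to *Mpc2* there ran from −0.22 to 0.0303, the latter without *Slc2a1* gRNA replicate 1, and that of *Slc16a3* to *Slc16a1* from −0.16 to 0.72, with −0.0791 without *Slc2a1* gRNA replicate 3 and −0.16 without five-gene replicate 1.

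Over all genes, 642 were called with the *Slc2a1* gRNA by edgeR, against 1161 by DESeq2, 1448 with no filter, 2268 with the 2 groups only, 0 and 52 by limma, and 11 to 1291 with libraries left out. With the 5 gRNAs 2204 were called, against 433 and 462 by limma and 631 to 2559 with libraries left out. Between the deleted populations 319 were called, against 720 by DESeq2, 974 with no filter, 129 without the block, 116 with the 2 groups only, 31 and 32 by limma, and 42 to 383 with libraries left out. Under total count scaling the higher share of calls was 23.9%, 41.9% and 69.5%, against 48.4%, 53.3% and 58.9%. It was 27.3% (5 gRNAs) by limma on log2(TPM + 1).

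Calls of list and targeted genes were lost in 113 of their 338 fits under alternatives, with 0 changes of sign. With 19 to 46 counts, *Slc16a3* differences inside a 0.398- to 1.61-fold range of control could not be resolved, and *Emb* and *Slc16a7* lay below a testable depth.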
